A study of Homo sapiens with 8 samples.

Results

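The aminoacyl tRNA synthetases are described here in human breast tumors grown in mice given nicotinamide mononucleotide (NMN, a precursor of NAD+) or vehicle. The members were the genes whose symbol is a letter followed by ARS, ARS1 or ARS2, together with EPRS1, FARSA, FARSB, AIMP1, AIMP2 and EEF1E1. This rule found 40 of the 18164 genes of the deposited table. They comprised 20 cytosolic enzymes, 17 mitochondrial enzymes with symbols ending in ARS2, and 3 scaffold genes that encode no synthetase (AIMP1, AIMP2 and EEF1E1). The rule itself reads symbols only, but it was set with earlier results of these data known.

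The NMN group held 4 tumors from mice treated at 500 mg/kg/day and the Vehicle group held 4 tumors. All 8 tumors were grown from HCC1937, an established breast cancer line of the triple-negative type, injected into the inguinal mammary fat pad of NCG mice (NOD/ShiLtJGpt-Prkdcem26Cd52Il2rgem26Cd22/Gpt). This strain lacks mature T, B and NK cells and keeps its myeloid cells, and treatment began once tumors had formed. The labels give neither age nor sex of the mice and do not say that each tumor came from a separate animal, so a p-value reflects only how these 8 samples vary. The values are TPM, a length-scaled share of all transcripts in a library, so levels can be compared between genes. Read depth is unknown.

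An aminoacyl tRNA synthetase joins an amino acid to its matching tRNA, the step that sets the genetic code in protein synthesis. The cytosol and the mitochondria each need a set of charged tRNAs, and both sets of enzymes are encoded in the nucleus. Most amino acids have separate genes for the cytosolic and the mitochondrial enzyme, whereas KARS1 (lysine) and GARS1 (glycine) supply both compartments. In the cytosol, enzymes such as EPRS1, IARS1, LARS1, MARS1, QARS1, RARS1 and KARS1 assemble with AIMP1, AIMP2 and EEF1E1 into the multisynthetase complex. Many cytosolic synthetase genes are known targets of ATF4, the transcription factor of the amino acid response, which binds the C/EBP-ATF response element.

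That element was searched for as TGATG, any base, then AA, on both strands of the RefSeq promoter windows (GRCh38.p14), which reach from 250 bases before to 50 bases after an annotated gene start. Windows were found for 33 of the 40 members. The letters occurred in 7 of 16 cytosolic enzyme genes (43.8%), in 1 of 14 mitochondrial enzyme genes (7.14%) and in 0 of 3 scaffold genes, against 475 of 14329 genes of the table with a window (3.31%). The 8 matches are shown because they mark where this element could be read in member promoters, and the difference in shares was not tested. Each is written 5′ to 3′ along the strand that carries the motif, whose letters are in capitals.
AARS1: aacttggcTGATGCAActgcgaga
CARS1: ctagaatcTGATGCAAccgccgcc
GARS1: tcggagcaTGATGAAAtcgccgcg
IARS1: cacggaggTGATGCAAcgcgctga
MARS1: tccctcgcTGATGCAAccggaacc
NARS1: acgctctcTGATGCAAcgccggaa
TARS1: ggaccagcTGATGCAAtcgaaagg
YARS2: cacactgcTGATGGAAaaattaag

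The printed stretches lie at chr16:70289678-70289701 (plus strand) for AARS1, chr11:3057410-3057433 (plus) for CARS1, chr7:30594837-30594860 (minus) for GARS1 and chr9:92293695-92293718 (plus) for IARS1. Those of MARS1, NARS1, TARS1 and YARS2 lie at chr12:57488056-57488079, chr18:57621807-57621830, chr5:33440959-33440982 and chr12:32756079-32756102, all on the minus strand. In 6 of the 7 cytosolic genes the motif read TGATGCAA, in GARS1 TGATGAAA and in YARS2 TGATGGAA. Along the gene, its first base stood at -13 in IARS1, -4 in MARS1, -2 in CARS1, 3 in TARS1, 15 in NARS1, -33 in GARS1, -187 in AARS1 and -197 in YARS2, counted from the gene start of the window. All 7 cytosolic genes belong to the 13 that were listed as known ATF4 targets, of which 10 had a window. A match is a description of letters and does not show binding.

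The label of the tumors was checked against marker genes. The basal keratin genes KRT5 and KRT14 ran from 2817 to 6488 TPM and from 2603 to 6953 TPM, the progesterone receptor gene PGR from 0 to 0.02 TPM, the estrogen receptor gene ESR1 from 3.37 to 6.00 TPM and ERBB2 from 77.6 to 130 TPM. The 15 skeletal muscle markers summed to 32.6, 47.4 and 52.9 TPM in NMN 2, NMN 3 and NMN 1 and to 680 TPM in NMN 4. In Vehicle tumors they summed to 458 to 2692 TPM, so NMN 4 lay inside the Vehicle range. Of those tested, 14 of 14 had the lower mean in NMN tumors, where 49% of all tested genes did. Their median log2 fold change, NMN over Vehicle, was -3.01. At an unadjusted p under 0.05 (limma) stood 13 of the 14, against 6.94% of all tested genes. At an adjusted p under 0.05 stood 0, where 0% of all tested genes did. The 5 luminal and epithelial markers, KRT8 among them, summed to 2146 to 2874 TPM in NMN tumors and 1208 to 2293 TPM in Vehicle tumors. Of the 5, 4 had the higher mean in NMN tumors and CDH1 the lower (164 against 177 TPM). Vehicle 4 had the highest KRT5 and KRT14 and the lowest epithelial sum, but its CDH1, at 187 TPM, was exceeded only by NMN 4, at 195 TPM. Of 7 fibroblast markers, DCN and LUM were at or near 0 in every tumor and PDGFRA at 0.31 to 0.71 TPM. The sum, mostly from the collagen genes COL1A1, COL1A2 and COL3A1, was 118, 128, 163 and 233 TPM in NMN 1 to 4. It was 188, 213, 273 and 285 TPM in Vehicle 1 to 4, so that only NMN 4 lay inside the Vehicle range. For FAP, NMN 2 (2.55 TPM) lay inside the Vehicle range (2.26 to 4.3 TPM) as well. The part of all these markers in the results below was not tested. In such bulk samples fewer cells of a type and less RNA per cell cannot be told apart. The labels do not say how mouse reads were treated, so host transcripts may contribute to any level.

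Each of the 40 members was detected in every tumor, and each passed the filter for testing (at least 1 TPM in at least 4 tumors). The cytosolic enzymes stood far above the mitochondrial ones. Mean levels over the 8 tumors ran from 33.9 to 223 TPM in the cytosolic set, with a median of 101 TPM, and from 7.18 to 71.2 TPM in the mitochondrial set, with a median of 15.7 TPM. Of the 17 mitochondrial enzymes, 13 had a mean below that of CARS1, the lowest cytosolic enzyme. The scaffold genes lay at 61.7 ± 4.99 TPM for AIMP1, 74.4 ± 8.57 TPM for EEF1E1 and 75.3 ± 7.54 TPM for AIMP2 (SD, n = 8).

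SARS1, for serine, was the highest member by mean, at 223 ± 26.3 TPM, followed by KARS1 at 217 ± 19.8 TPM and TARS1, for threonine, at 201 ± 13.6 TPM (SD, n = 8). These 3 genes were the top of the cytosolic set in all 8 tumors and held 29.3% of its summed TPM, but their order changed between tumors, and the 3 means lay within the SD of SARS1. GARS1 at 152 ± 16.0 TPM and RARS1, for arginine, at 146 ± 10.2 TPM came next and were likewise not separated. At the lower end stood VARS1, for valine, at 37.7 ± 4.39 TPM and CARS1, for cysteine, at 33.9 ± 4.78 TPM, which shared the bottom ranks in every tumor. Cytosolic phenylalanine charging needs subunits from FARSA and FARSB, and FARSA was 2.49 to 3.28 times as high as FARSB.

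In the mitochondrial set, IARS2, for isoleucine, was the highest enzyme in each of the 8 tumors, at 71.2 ± 6.29 TPM, and PARS2, for proline, was the lowest in each, at 7.18 ± 1.05 TPM (SD, n = 8). RARS2 at 47.5 ± 4.62 TPM and CARS2 at 42.9 ± 3.84 TPM held the next ranks and differed by about their spread. Below these, 12 further enzymes averaged from 9.97 TPM for FARS2 to 23.2 TPM for HARS2.

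For 14 amino acids a cytosolic symbol ending in ARS1 has a mitochondrial counterpart ending in ARS2. Their levels were set side by side within each tumor. Phenylalanine (FARSA and FARSB against FARS2), glutamate and proline (EPRS1 against EARS2 and PARS2) also have separate genes but were not paired. The cytosolic enzyme was the higher in all 8 tumors for 13 of these 14 amino acids. The ratio of cytosolic to mitochondrial TPM was widest for serine, at 15 to 26.5, and for threonine, at 12.0 to 24.7. Alanine (7.15 to 10.0), tyrosine (6.5 to 9.01), leucine (6.02 to 8.52), tryptophan (5.15 to 9.58) and methionine (5.05 to 7.06) followed. The ratio was narrow for isoleucine (1.45 to 2.06) and valine (1.6 to 2.81). Cysteine was the exception: CARS2 exceeded CARS1 in all 8 tumors, with a ratio of 0.636 to 0.894.

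**Figure D1:**
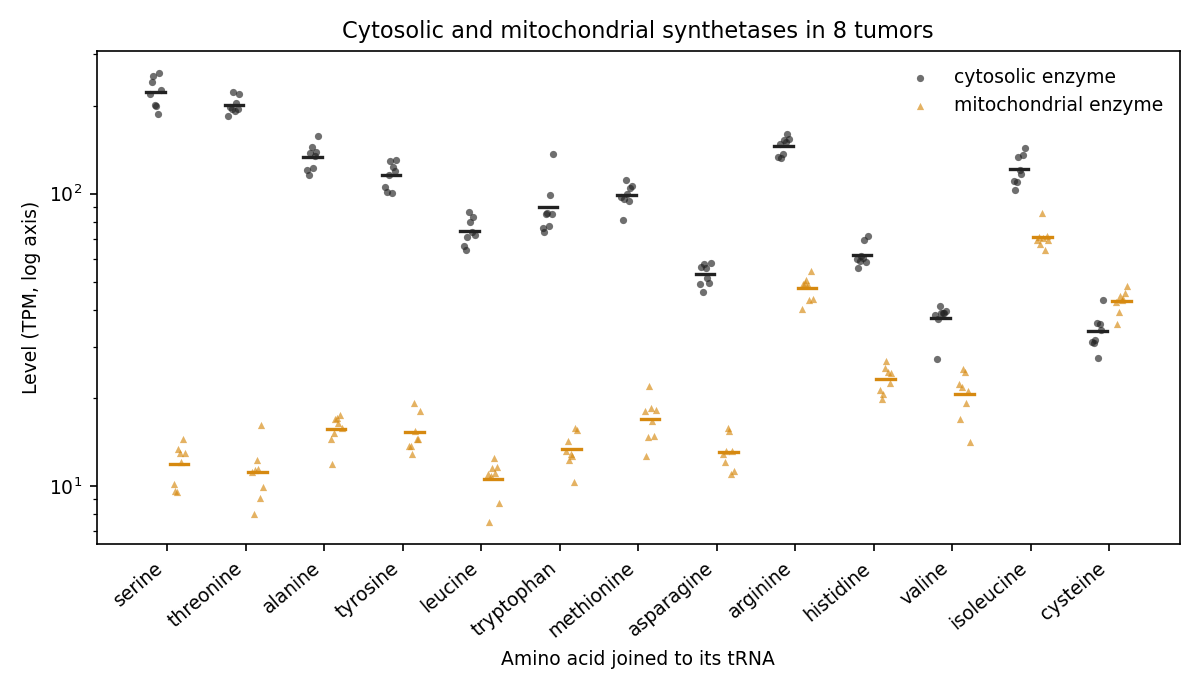
Levels of the cytosolic (circles) and mitochondrial (triangles) synthetase for 13 amino acids, in TPM on a log axis; each point is 1 of 8 tumors and each bar the mean of 8, with amino acids ordered by falling ratio. Serine shows the widest gap, at ratios of 15 to 26.5, and cysteine is the only amino acid with the mitochondrial enzyme on top.

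Summed over each set, the cytosolic enzymes came to 2067, 2027, 2119 and 2280 TPM in NMN 1 to 4 and to 2107, 2172, 2294 and 2407 TPM in Vehicle 1 to 4. The mitochondrial enzymes came to 377, 347, 362 and 438 TPM in NMN 1 to 4 and to 412, 366, 418 and 390 TPM in Vehicle 1 to 4. NMN 4 lay inside the Vehicle range for the cytosolic sum and above it for the mitochondrial sum, while the sums of NMN 1 lay below the Vehicle range only in the cytosolic set. The cytosolic sum was 5.60 ± 0.315 times the mitochondrial sum in NMN tumors and 5.68 ± 0.467 times in Vehicle tumors (SD, n = 4 each), a difference smaller than the spread within either group. The cytosolic sum includes KARS1 and GARS1, which supply both compartments, and both phenylalanine subunit genes, so the ratio does not measure charging capacity.

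The median coefficient of variation over 8 tumors was 10.5% for cytosolic enzymes, 14.3% for mitochondrial enzymes and 10.0% for scaffold genes, beside 14.0% for all 9347 tested genes whose mean lay within the members' range of levels. TARS1 varied least, at 6.78%, and WARS1, for tryptophan, most, at 22.9%.

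The comparison of NMN with Vehicle asks how NAD+ precursor treatment altered these genes in the tumors. No member differed between the groups by the test. Of the 40, 32 had the lower mean in NMN tumors, where 49% of all tested genes did. The 40 were measured in the same 8 tumors and are not independent observations. By limma's moderated test on log2(TPM + 1), with Benjamini-Hochberg adjustment over all 13358 genes tested, 0 of 40 members passed at 0.05, where 0% of all genes passed. At an unadjusted p under 0.05 stood 0 members as well, where 6.94% of all genes did in either direction and 2.15% with the lower mean in NMN tumors. Adjusted p-values of the members ran from 0.761 to 0.998. Each 95% interval of the fold change stayed inside a change of 2-fold in either direction: the lowest bound was 0.65-fold, for WARS1, and the highest 1.43-fold, for VARS2.

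Each fold change below sets NMN against Vehicle as a difference of mean log2(TPM + 1), with its standard error. The lower mean in NMN tumors was found for 17 of 20 cytosolic enzymes, 13 of 17 mitochondrial enzymes and 2 of 3 scaffold genes, where 49% of all tested genes had it. The median log2 fold change was -0.10 in both the cytosolic and the mitochondrial set and -0.06 over the scaffold genes, beside 0.00 over all tested genes. With 1 tumor left out the cytosolic median lay between -0.15, reached when NMN 4 was dropped, and -0.041, reached when Vehicle 4 was; dropping NMN 2 gave -0.051. The mitochondrial median ran from -0.165 (without NMN 4) to -0.032 (without NMN 3), and was -0.042 without NMN 2, -0.064 without Vehicle 3 and -0.066 without Vehicle 4. The median over all tested genes moved as well, to -0.035 without NMN 4, 0.041 without NMN 2 and 0.031 without Vehicle 3. It was 0.010 without NMN 3 and 7.8e-05 without Vehicle 4. The scaffold median was 0.00 without NMN 3 or Vehicle 1, where it turned positive, and between -0.139 and -0.042 without any other tumor, so its direction rests on single libraries.

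Grouped by role, the 8 enzymes of the multisynthetase complex had a median of -0.13, with 6 lower in NMN tumors, and the 12 cytosolic enzymes outside it one of -0.08, with 11 lower. Of the 13 listed ATF4 targets, 12 were lower by mean, at a median of -0.09, and of the other 7 cytosolic enzymes 5 were, with a median of -0.11. The 7 cytosolic genes with the motif were all lower by mean, with a median of -0.08, and 7 of the 9 cytosolic genes with a window and no motif were lower, with a median of -0.14. Synthetases fall into classes I and II by the fold of the catalytic domain. EPRS1, which serves both glutamate and proline, was counted in class I only, and the subunit genes FARSA and FARSB both in class II. The medians were -0.12 for class I and -0.04 for class II in the cytosolic set, and -0.04 for class I and -0.12 for class II in the mitochondrial set. None of these groups was tested against another.

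**Figure D2:**
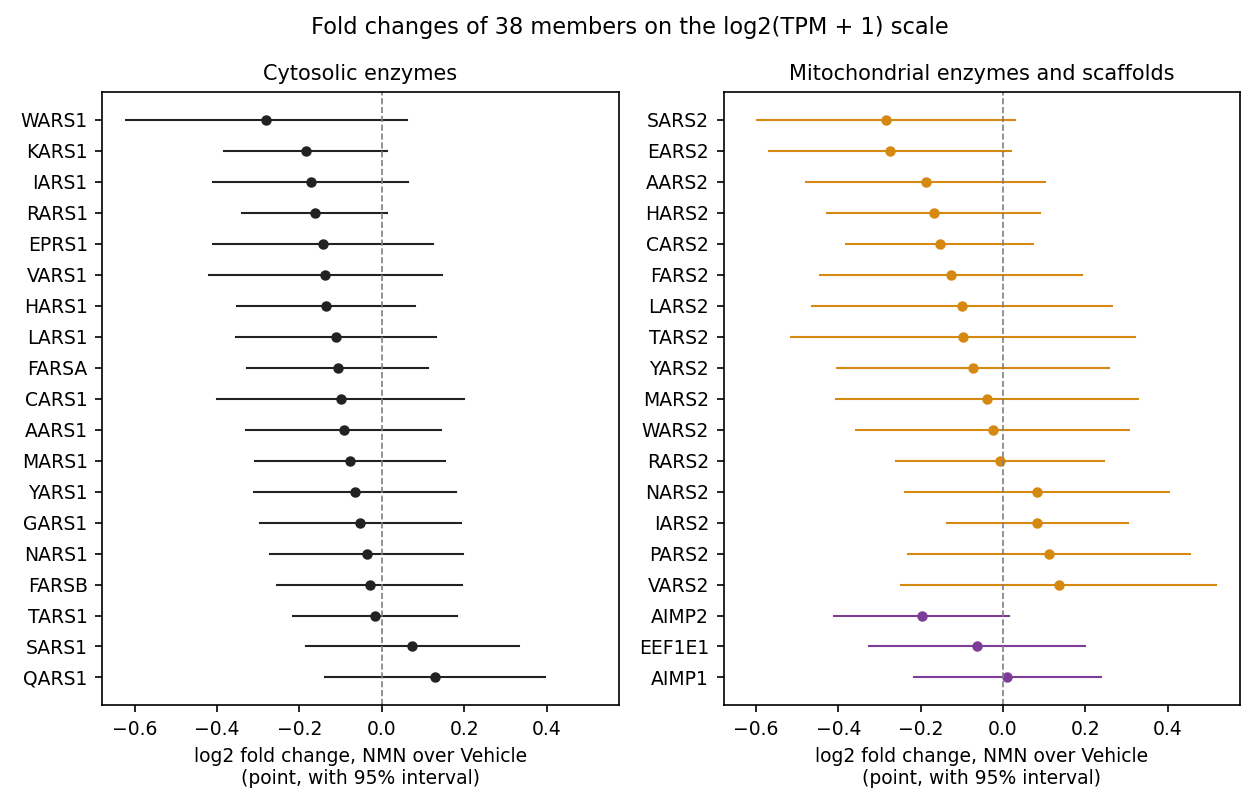
Log2 fold changes of 38 members, NMN over Vehicle, as points with 95% intervals from limma (4 tumors each); cytosolic enzymes on the left, mitochondrial enzymes and, at the bottom, the 3 scaffold genes on the right. Points lie left of 0 for 31 of the 38 and every interval includes 0.

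RARS1, the arginine enzyme of the multisynthetase complex (chromosome 5, 168486445 to 168519299, plus strand), was the only member without overlap between the groups. It was at 134, 147, 132 and 137 TPM in NMN 1 to 4, against 152, 150.03, 160 and 154 TPM in Vehicle 1 to 4. All 4 NMN tumors lay below all 4 Vehicle tumors, with NMN 2 and Vehicle 2 the closest. Separation in the lower direction held for 1 of 40 members, where 0.966% of all tested genes showed it, and in the higher direction for 0, where 2.08% did (3.05% in either). The log2 fold change was -0.16 ± 0.08 (limma, adjusted p = 0.765). The exact two-sided permutation test gave p = 0.0286, the smallest that 4 against 4 tumors allow and 1 of 40 such values. Any gene without overlap gives this p-value, so it adds nothing to the separation. RARS2, its mitochondrial counterpart, had a log2 fold change of -0.01 ± 0.11.

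KARS1, which charges lysine tRNAs in both compartments (chromosome 16, 75627474 to 75648643, minus strand), was at 207, 182, 194 and 229 TPM in NMN 1 to 4, against 232, 225, 232 and 232 TPM in Vehicle 1 to 4. The Vehicle tumors were close together, and NMN 1, NMN 2 and NMN 3 lay below them while NMN 4 lay among them. The log2 fold change was -0.19 ± 0.09 (limma, adjusted p = 0.761), the smallest unadjusted p of the members. IARS1 was at 111, 103, 110 and 134 TPM in NMN 1 to 4, against 120, 117, 135 and 143 TPM in Vehicle 1 to 4, again with only NMN 4 inside the Vehicle range. EPRS1, which joins both glutamate and proline to their tRNAs, was at 84.2, 86.0, 85.7 and 111 TPM in NMN 1 to 4, against 89.7, 93.0, 105 and 117 TPM in Vehicle 1 to 4. The log2 fold changes of IARS1 and EPRS1 were -0.17 ± 0.11 and -0.14 ± 0.12 (limma, adjusted p = 0.860 and 0.922). For EPRS1 it was -0.24 without NMN 4 and -0.07 without Vehicle 4.

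WARS1, the tryptophan enzyme (chromosome 14, 100333788 to 100376805, minus strand), is known as an interferon-induced synthetase. It was at 76.2, 73.7, 85.1 and 86.1 TPM in NMN 1 to 4, against 77.8, 99.0, 85.4 and 137 TPM in Vehicle 1 to 4. Vehicle 4 stood far above the other tumors, and the groups overlapped. The log2 fold change was -0.28 ± 0.16 (limma, adjusted p = 0.825), and it was -0.12 without Vehicle 4. Among the interferon-regulated genes, OAS2, an antiviral enzyme, was at 18.3, 20.5, 18.7 and 31.0 TPM in NMN 1 to 4, against 35.1, 31.3, 36.4 and 44.0 TPM in Vehicle 1 to 4. Its groups did not overlap, nor did those of PSMB9, a subunit of the immunoproteasome, or IRF1, a transcription factor of the response. These were 3 of the 8 tested genes in the list of interferon gamma response, all lower, where 0.966% of all tested genes separated so. The log2 fold changes of OAS2, PSMB9 and IRF1 were -0.73 ± 0.17, -0.40 ± 0.13 and -0.46 ± 0.17 (limma, adjusted p = 0.268, 0.459 and 0.553). The list held 12 genes, of which CXCL9, CXCL10, CXCL11 and CIITA were too low to be tested. Of the 8 tested, 5 were highest in Vehicle 4, where 16.9% of all tested genes were. By mean, 7 of the 8 were lower in NMN tumors, at a median of -0.30, where 49% of all tested genes were lower. The part of interferon signaling in the WARS1 level was not tested.

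QARS1, for glutamine, had the highest fold change of the cytosolic enzymes. It was at 108, 101, 112 and 108 TPM in NMN 1 to 4, against 112, 95.5, 111 and 76.9 TPM in Vehicle 1 to 4. Vehicle 4 and Vehicle 2 lay below every NMN tumor, Vehicle 4 by the wider gap, and Vehicle 1 and Vehicle 3 lay among the NMN values. The log2 fold change was 0.13 ± 0.12 (limma, adjusted p = 0.937), or 0.01 without Vehicle 4. SARS1, the most abundant member, was at 220, 241, 253 and 201 TPM in NMN 1 to 4, against 199, 187, 258 and 227 TPM in Vehicle 1 to 4, with full overlap and a log2 fold change of 0.07 ± 0.12. With 1 tumor left out it ranged widely, down to 0.004 without Vehicle 2, 0.02 without NMN 3, 0.04 without Vehicle 1 and 0.05 without NMN 2, and up to 0.14 without NMN 4 and 0.16 without Vehicle 3. GARS1, the dual-compartment glycine enzyme, was at 150, 157, 147 and 140 TPM in NMN 1 to 4, against 125, 158, 157 and 180 TPM in Vehicle 1 to 4, so the Vehicle tumors enclosed all NMN values. CARS1 was at 31.1, 30.9, 31.7 and 36.2 TPM in NMN 1 to 4, against 27.5, 35.9, 34.3 and 43.3 TPM in Vehicle 1 to 4, likewise enclosed. The log2 fold changes of GARS1 and CARS1 were -0.05 ± 0.11 and -0.10 ± 0.14, and without Vehicle 4 they were 0.02 and 0.00. Without Vehicle 1 they were -0.15 and -0.21, without NMN 4 -0.03 and -0.15, and for GARS1 -0.08 without NMN 2. A further 9 cytosolic enzymes ran from -0.14 for VARS1 to -0.02 for TARS1.

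Of the mitochondrial enzymes, EARS2 and SARS2 had the lowest fold changes. EARS2, for glutamate (chromosome 16, 23522014 to 23557731, minus strand), also charges the mitochondrial glutamine tRNA with glutamate before an amidotransferase converts it. It was at 19.3, 16.4, 17.7 and 23.7 TPM in NMN 1 to 4, against 26.0, 23.3, 22.7 and 21.4 TPM in Vehicle 1 to 4. SARS2 (chromosome 19, 38915266 to 38930896, minus strand) was at 10.2, 9.64, 9.55 and 13.4 TPM in NMN 1 to 4, against 12.95, 12.1, 14.5 and 12.95 TPM in Vehicle 1 to 4. For both genes NMN 1, NMN 2 and NMN 3 lay below every Vehicle tumor and NMN 4 within the Vehicle range. Their log2 fold changes were -0.27 ± 0.13 and -0.28 ± 0.14 (limma, adjusted p = 0.761 and 0.780). The amidotransferase genes QRSL1, GATB and GATC had log2 fold changes of -0.00 ± 0.12, -0.01 ± 0.13 and 0.04 ± 0.12.

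AARS2, for alanine, was at 14.5, 11.9, 15.2 and 16.9 TPM in NMN 1 to 4, against 17.1, 16.4, 17.5 and 15.8 TPM in Vehicle 1 to 4, a log2 fold change of -0.19 ± 0.13. CARS2 was at 42.7, 35.9, 39.3 and 44.6 TPM in NMN 1 to 4, against 43.2, 43.7, 45.6 and 48.4 TPM in Vehicle 1 to 4, a log2 fold change of -0.15 ± 0.10. In both, NMN 4 was again the only NMN tumor inside the Vehicle range, and without NMN 2 the log2 fold changes of AARS2 and CARS2 were -0.10 and -0.10. FARS2, for phenylalanine, was at 10.6, 8.62, 8.68 and 9.97 TPM in NMN 1 to 4, against 9.65, 9.88, 12.8 and 9.52 TPM in Vehicle 1 to 4, where only NMN 2 and NMN 3 lay below the Vehicle range. Its log2 fold change was -0.13 ± 0.15, or -0.03 without Vehicle 3. IARS2 was at 69.4, 71.1, 67.5 and 85.6 TPM in NMN 1 to 4, against 70.7, 64.0, 71.4 and 69.7 TPM in Vehicle 1 to 4, with NMN 4 above the range. PARS2 was at 7.91, 5.68, 7.35 and 9.23 TPM in NMN 1 to 4, against 7, 6.95, 6.57 and 6.75 TPM in Vehicle 1 to 4, with NMN tumors on both sides of a narrow Vehicle range. The log2 fold changes of IARS2 and PARS2 were 0.08 ± 0.10 and 0.11 ± 0.16, or 0.01 and 0.02 without NMN 4. For IARS2 it was 0.05 without Vehicle 2, and for PARS2 0.22 without NMN 2. A further 8 mitochondrial enzymes ran from -0.10 for LARS2 to 0.14 for VARS2.

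HARS1 and HARS2, the cytosolic and mitochondrial histidine enzymes, lie head to head on chromosome 5, with RefSeq gene starts at 140691370 (minus strand) and 140691455 (plus strand) and 84 bases between them. GENCODE 29 lets the genes overlap, from 140673904 to 140691862 for HARS1 and from 140691426 to 140699318 for HARS2, and whether counting used strand is not stated, so reads of the shared stretch are uncertain. HARS1 was at 59.9, 55.6, 58.7 and 61.2 TPM in NMN 1 to 4, against 60.2, 69.4, 58.6 and 71.6 TPM in Vehicle 1 to 4. HARS2 was at 21.3, 19.9, 20.7 and 25.3 TPM in NMN 1 to 4, against 26.8, 24.5, 22.6 and 24.3 TPM in Vehicle 1 to 4. Both had the lower mean in NMN tumors, at log2 fold changes of -0.14 ± 0.10 and -0.17 ± 0.12, but Vehicle 1 was the highest tumor for HARS2 and Vehicle 4 for HARS1. Without Vehicle 4 the value for HARS1 was -0.09. The HARS1 to HARS2 ratio ran from 2.42 to 2.84 in NMN tumors and from 2.24 to 2.95 in Vehicle tumors.

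**Figure D3:**
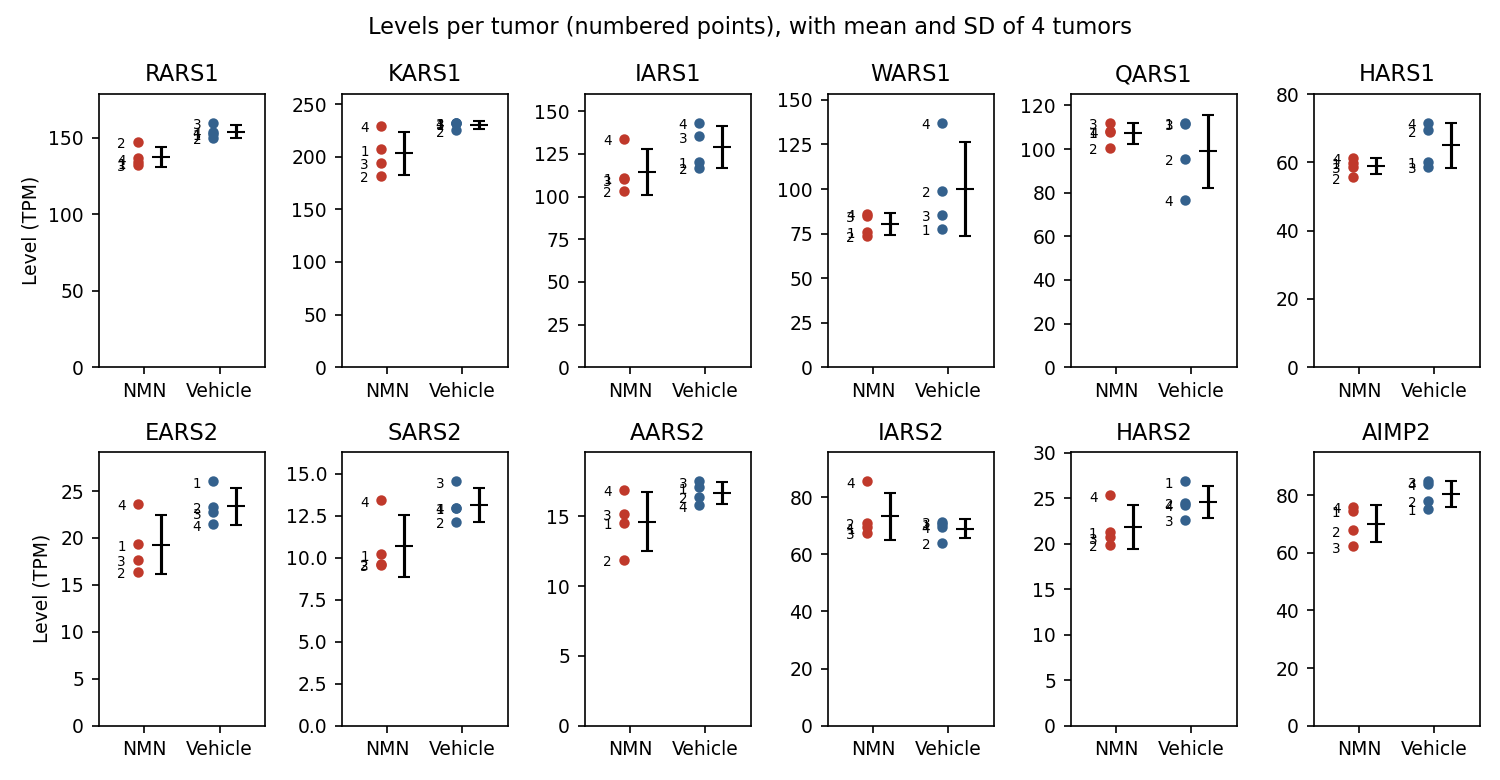
Levels in TPM of 12 members in each NMN and Vehicle tumor; points carry the tumor number and the bar beside them is the mean with SD of 4 tumors. In RARS1 the groups do not overlap, in KARS1, IARS1, EARS2, SARS2, AARS2, HARS2 and AIMP2 3 of the 4 NMN tumors lie below every Vehicle tumor, and in WARS1 and QARS1 Vehicle 4 stands apart.

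For 9 of the 14 paired amino acids, both enzymes had the lower mean in NMN tumors, and for 5 the signs were opposite. Isoleucine was the only one of the 14 whose ratio of cytosolic to mitochondrial enzyme did not overlap between groups. The ratio IARS1 to IARS2 was 1.6, 1.45, 1.63 and 1.56 in NMN 1 to 4 and 1.70, 1.83, 1.90 and 2.06 in Vehicle 1 to 4, with IARS1 lower and IARS2 higher by mean in NMN tumors. It was singled out after the values of 14 ratios were seen and was not tested. The serine ratio was 21.5, 25.0, 26.5 and 15 in NMN 1 to 4 and 15.4, 15.4, 17.8 and 17.5 in Vehicle 1 to 4, where NMN 4 lay below the Vehicle range and the other 3 NMN tumors above it.

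The scaffold genes differed among themselves in the sign of their fold change. AIMP2, the core scaffold that binds most subunits of the complex, measured 74.6, 67.9, 62.3 and 76.0 TPM in NMN 1 to 4 and 75.3, 78.0, 84.8 and 83.8 TPM in Vehicle 1 to 4. Only NMN 4 reached the Vehicle range, and the log2 fold change was -0.20 ± 0.10 (limma, adjusted p = 0.765). AIMP1, whose product is also secreted as the precursor of the cytokine EMAPII, was at 58.9, 67.4, 58.5 and 62.7 TPM in NMN 1 to 4, against 66.7, 58.0, 67.3 and 54.4 TPM in Vehicle 1 to 4. EEF1E1 was at 69.2, 74.6, 63.3 and 84.1 TPM in NMN 1 to 4, against 87.0, 64.6, 78.1 and 74.8 TPM in Vehicle 1 to 4. The log2 fold changes of AIMP1 and EEF1E1 were 0.01 ± 0.10 and -0.06 ± 0.12, with the groups fully mixed. With 1 tumor left out, AIMP1 ranged from -0.05 without Vehicle 4 to 0.05 without Vehicle 3, and EEF1E1 from -0.14 without Vehicle 2 to 0.00 without Vehicle 1 or NMN 3.

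Seen by tumor, NMN 2 held the lowest value of 18 members (45%), 9 of them cytosolic and 9 mitochondrial, where it held the lowest value of 26.1% of all tested genes. NMN 4 held the highest value of 11 members (27.5%) and the lowest of 0, where it was highest in 24.6% of all tested genes. Vehicle 4 was highest in 12 members, 11 of them cytosolic and 1 mitochondrial, and in 16.9% of all tested genes. Against the range of the 4 Vehicle tumors, NMN 1, NMN 2 and NMN 3 lay below it in 19, 23 and 20 members and above it in 2 each, whereas NMN 4 lay below it in 1 and above it in 11.

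For a part of the members, overlap between the groups rested on NMN 4. Without it the remaining NMN tumors lay below all Vehicle tumors in 14 of 40 members (7 cytosolic, 6 mitochondrial and AIMP2), where 6.15% of all tested genes did, and above them in 0, where 3.84% did. With any other tumor left out the number below was 1 to 3 members, among 1.29% to 2.44% of all tested genes. Also without NMN 4, limma called 54 genes in all and 0 members, at a smallest adjusted p of 0.343 for EARS2, where 0.404% of all genes passed. At an unadjusted p under 0.05 stood EARS2, SARS2, KARS1, IARS1 and AIMP2, that is 5 of 40 members where 9.55% of all genes did. NMN 4 is also the only NMN tumor whose summed muscle and fibroblast markers lay inside the Vehicle range, the fibroblast sum being mostly collagen. The part of these markers in the members' values was not tested.

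**Figure D4:**
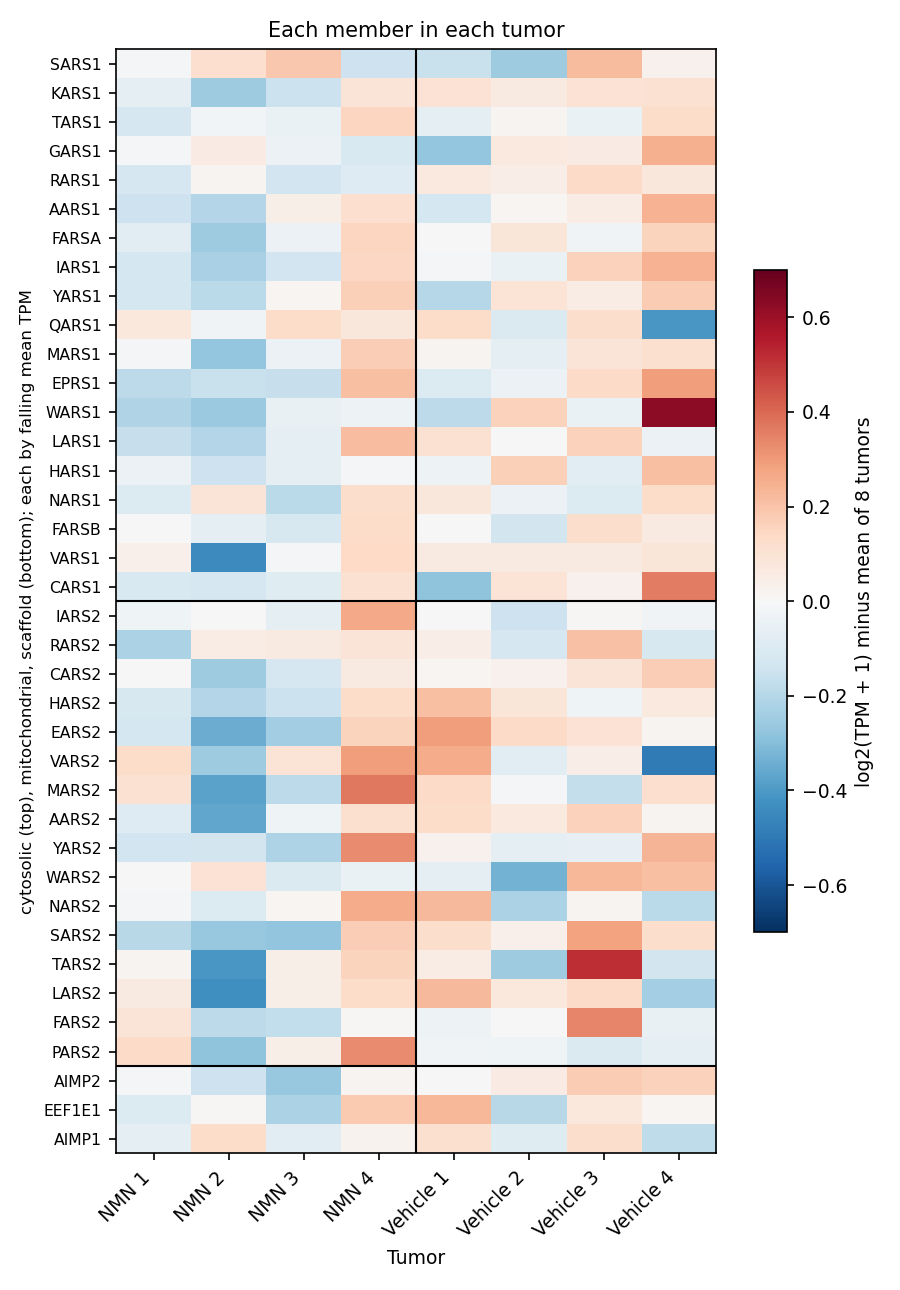
Deviation of each of 38 members from its mean of 8 tumors on the log2(TPM + 1) scale, with tumors as columns (NMN left of the line, Vehicle right) and genes as rows; red is higher and blue lower. NMN 2 is lowest in 18 members and NMN 4 in 0, and Vehicle 4 is highest in 11 cytosolic enzymes and 1 mitochondrial enzyme.

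Other genes of tRNA charging and its control were read from lists, none of which had a member past the test. Of 27 genes of the ATF4 amino acid response, 13 had the lower mean log2(TPM + 1) in NMN tumors and 14 the higher. PYCR1, counted as lower at -0.00044, had the higher mean TPM in NMN tumors (53.11 against 52.85). The median log2 fold change was 0.01. ATF4 itself was at 353, 402, 379 and 307 TPM in NMN 1 to 4, against 361, 333, 402 and 396 TPM in Vehicle 1 to 4, a log2 fold change of -0.05 ± 0.11. ASNS, the asparagine synthetase and a standard ATF4 target, was at 38.03, 41.2, 38.97 and 49.02 TPM in NMN 1 to 4, against 38.3, 45.1, 44.0 and 61.6 TPM in Vehicle 1 to 4. Vehicle 4 was the highest tumor for ASNS, for 9 of the 27 genes and for 8 of the 13 listed ATF4 target synthetases. It was also highest for 3 of the other 7 cytosolic enzymes and for 16.9% of all tested genes. The stress genes DDIT3 and TRIB3 had log2 fold changes of 0.22 ± 0.19 and -0.10 ± 0.12. ATF3, a stress-induced transcription factor, was at 14.9, 16.7, 15.2 and 12.4 TPM in NMN 1 to 4, against 9.53, 10.8, 9.43 and 9.22 TPM in Vehicle 1 to 4, without overlap. ATF3, VLDLR and STC2 had the smallest unadjusted p of the list and the higher mean in NMN tumors, at log2 fold changes of 0.55 ± 0.13, 0.83 ± 0.25 and 0.64 ± 0.25 (limma, adjusted p = 0.272, 0.396 and 0.603).

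Of 16 mitochondrial translation factors, 10 were lower by mean and the median was -0.02. TUFM, the elongation factor that carries charged tRNAs to the mitochondrial ribosome, was at 224, 200, 211 and 223 TPM in NMN 1 to 4, against 235, 249.4, 236 and 237 TPM in Vehicle 1 to 4. Its groups did not overlap, and the log2 fold change was -0.16 ± 0.08 (limma, adjusted p = 0.780). MRRF, the ribosome recycling factor, and MTERF4 had log2 fold changes of -0.20 ± 0.11 and 0.22 ± 0.18. In the list of 15 charging partners and editing factors, which shares SARS1 with the members and TUFM with the list before, 9 were lower by mean and the median was -0.01. EEF1A2, a tissue-restricted cytosolic counterpart of TUFM, had a log2 fold change of 0.35 ± 0.14 (limma, adjusted p = 0.618), and DTD1, which removes D-amino acids from tRNAs, one of 0.31 ± 0.14 (limma, adjusted p = 0.725). TARS3, the threonine enzyme paralog outside the rule, was at 1.74 to 3.11 TPM in NMN tumors and 1.69 to 2.38 TPM in Vehicle tumors. Of 22 tested genes of tRNA maturation and export, 16 were lower by mean and the median was -0.10. CLP1, the RNA kinase of tRNA splicing, OSGEP and POP7 had log2 fold changes of -0.28 ± 0.14, -0.18 ± 0.13 and -0.19 ± 0.15 (limma, adjusted p = 0.803, 0.880 and 0.905). MYC, which drives growth genes, was at 103, 79.1, 69.5 and 93.1 TPM in NMN 1 to 4, against 74.6, 77.9, 68.8 and 74.2 TPM in Vehicle 1 to 4, a log2 fold change of 0.21 ± 0.12. MXD1 and MYCN had log2 fold changes of 0.47 ± 0.21 and 0.32 ± 0.22, and 8 of the 11 genes of the MYC list were lower by mean, at a median of -0.06.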

How the data were processed

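RNA sequencing was measured in 4 NMN and 4 Vehicle tumors. The authors deposited a table of TPM per gene and tumor, per the file headers, in which each library sums to 1000000; 183 genes are at 0 in all. HISAT2 2.1.0, Bowtie2 2.2.5, RSEM 1.2.8 and GRCh38.p13 are named in the submitters' processing notes, without their roles. Genes with TPM of at least 1 in at least 4 tumors were tested on log2(TPM + 1) with limma 3.58.1 in R 4.3.3 (mean-variance trend, group as the only term, two-sided, Benjamini-Hochberg at 0.05). The fold of low genes is understated on this scale.

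Named in full were 6 cytosolic and 6 mitochondrial enzymes with the smallest unadjusted p, the scaffolds, WARS1, KARS1, GARS1, QARS1, EPRS1, the extremes of level, members without overlap, and, of the other lists, the 3 genes of smallest p with ATF4, ASNS, DDIT3, TRIB3 and MYC; marker genes, QRSL1, GATB, GATC and TARS3 were added with their values known. Single values of 2 members are not reported here; counts, sums and medians include them. Members and lists were chosen with earlier results of these data known. The alternatives were 0.1 or 5 as pseudocount, all genes or only those at 5 TPM, scaling by median of ratios or quantiles, no trend, a robust fit, the replicate number as a block, and each tumor left out. Gene positions are from GENCODE 29 (GRCh38, 40 of 40 members matched by Entrez identifier), promoter windows from RefSeq (GRCh38.p14).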

Additional observations from a re-analysis of the deposited data

Results flagged for a closer look

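In 80 sets of 4 values (40 members in each group) the tumor farthest from the others was tested by its gap relative to the range of the set. The ratio exceeded Dixon's 95% limit in 8 sets, where chance gives about 1 in 20, or 4. In NMN tumors, NMN 4 stood above the other 3 for EPRS1 (111.15 TPM against 84.2 to 86.0), CARS1 (36.2 TPM against 30.9 to 31.7), SARS2 (13.4 TPM against 9.55 to 10.2) and YARS2 (19.3 TPM against 12.9 to 13.7). NMN 1 stood below the others for RARS2, at 40.4 TPM against 49.1 to 50.5 TPM. In Vehicle tumors, Vehicle 3 stood above for FARS2 (12.8 TPM against 9.52 to 9.88) and Vehicle 2 below for KARS1 (225.04 TPM against 231.72 to 232.17). Vehicle 4 also stood above for VARS1, at 39.75 TPM, because the other 3 tumors lay between 39.17 and 39.18 TPM.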

How the results depend on the processing

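Over 17 other settings 0 members passed, in each. The number of all genes called was 0, except 2 with the replicate number as a block, 1 without Vehicle 3 and 54 without NMN 4 (range 0 to 54 with 1 tumor left out). Same-numbered tumors did not deviate together (correlations of 0.026, 0.00094, -0.032 and -0.12), and no tumor correlated best with its own number, so the numbers are not taken as pairs. The medians of the cytosolic, mitochondrial and scaffold sets moved by less than the spread between tumors throughout, and the number of members with the lower mean in NMN tumors was 32 of 40 in every setting that used all tumors and 27 to 33 with 1 left out. Of all tested genes, 48.5% to 53.4% had it in the former settings and 39.8% to 57.1% in the latter. Of 357 fold changes of named members, 7 changed sign, all with 1 tumor left out: AIMP1 (-0.0465 to 0.0537), EEF1E1 (-0.139 to 0.00277), CARS1 (-0.21 to 0.00264) and GARS1 (-0.152 to 0.0232). At an unadjusted p under 0.05 stood 3 members without a filter (RARS1, AIMP2 and KARS1; 7.5%, against 6.76% of all genes) and 4 after median-of-ratios or quantile scaling (SARS2, EARS2, KARS1 and AIMP2; 10%, against 8.46% and 8.64%). It was 1 without NMN 2 (RARS1) and 1 without Vehicle 1 (WARS1), each 2.5%, against 6.9% and 8.99%. TPM keeps no depth, so counting error is unknown.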
